A study of Mus musculus with 12 samples.

Results

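The stellate cell and extracellular matrix genes described here are 36 named genes. They encode collagens, proteoglycans, elastic fibre and crosslinking proteins, proteases and their inhibitors, contractile proteins, and receptors and identity genes of the cells that make this matrix. Each was found through the array rows annotated with that gene alone. Of the 36, 35 had a value among 19938 genes measured, Fbn1 being not analysed here, and 33 were tested among 14953 genes. Timp1 and Lox lay below the level at which genes were tested and are given by value.

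The values come from whole-liver RNA of 12 mice aged 7 weeks, in 3 groups of 4, with 1 array per biological replicate. Wild type mice were the controls. Transgenic mice carried constitutively active FoxO3, a transcription factor of the forkhead family that is inhibited downstream of insulin, under the LAP promoter, which is used to direct expression to hepatocytes. The last group carried the same transgene and received metformin, a glucose-lowering drug, whose dose, route and duration are not in the labels. All 3 groups came from a mix of C57BL/6 with NMRI that had at least 4 backcrosses to C57BL/6. No wild type mice given metformin are in these data, so every metformin value below is within transgenic mice, and the number of transgenic lines is not given. A level below is a log2 signal, a difference is one of group means on that log2 scale with its standard error, and a gene was called when limma's Benjamini-Hochberg adjusted p over all genes tested was under 0.05. Signals of different genes come from different probes, so their levels are not ranked against each other.

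Hepatic stellate cells lie between hepatocytes and the sinusoidal endothelium, store vitamin A as retinyl esters made by lecithin retinol acyltransferase (Lrat), and in healthy liver make small amounts of matrix. After injury they can turn into contractile, collagen-secreting myofibroblasts, with platelet-derived growth factor and transforming growth factor beta (TGF-beta) as the best known drivers. Their products, together with those of portal fibroblasts and endothelial cells, form the fibrillar collagens, basement membrane and proteoglycans of the liver.

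Few members were called in transgenic liver. Against wild type, 1 member was called higher (Dcn) and 1 lower (Col1a1), 6.06% of 33, where 14.1% of all genes tested were called (7.97% higher and 6.15% lower). With metformin, against untreated transgenic mice, 5 members were called lower (Des, Tgfb1, Rgs5, Ecm1 and Lum) and 0 higher. This was 15.2% of the members, where 24.7% of all genes were called (10.6% higher and 14.1% lower), so the share called lower was close to that of all genes. Metformin-treated transgenic mice against wild type gave 0 called members in limma, with 7 of 33 (21.2%) at an unadjusted p under 0.05, where 17% of all genes had such a p and 2.43% were called (0.99% higher and 1.44% lower). Limma with array weights called 2 members higher and 2 lower there, and 20.4% of all genes. The moderated F test over the 3 groups called 5 members (Col1a1, Des, Rgs5, Tgfb1 and Ecm1), where it called 24.2% of all genes. The median difference of the 33 members was -0.07 for transgenic against wild type, -0.06 for metformin-treated against transgenic and -0.18 for metformin-treated against wild type, beside -0.01, -0.01 and -0.02 over all genes. Both comparisons with the untreated transgenic mice share those 4 arrays. The member counts changed with the arrays fitted. In transgenic against wild type mice, none of the 12 fits that left out 1 array gave the same counts. They were 0 higher and 0 lower without wild type replicate 1, 2 or 4, transgenic replicate 3, or treated replicate 1 or 2, 0 and 1 without wild type replicate 3 or treated replicate 4, 0 and 2 without transgenic replicate 1, and 1 and 0 without transgenic replicate 4. With transgenic replicate 2 left out, 5 members (15.2%) were called higher and 3 (9.09%) lower, where 15.4% and 11.4% of all genes were, and with treated replicate 3 left out 4 (12.1%) and 2 (6.06%), where 12.5% and 9.22% of all genes were. With metformin, leaving out transgenic replicate 2 gave 1 higher (3.03%) and 10 lower (30.3%), where 13.5% and 18.8% of all genes were, and leaving out treated replicate 3 gave 1 and 4 (12.1%), where 11.8% and 16.8% were. The other 10 such fits with metformin called 4 lower, and 1 higher without wild type replicate 4.

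Some members separated the groups completely, whether or not they were called. Between transgenic and wild type mice, 3 members were higher on all 4 transgenic arrays (Des, Dcn and Tgfb1), where 10.9% of all genes were, and 4 were lower (Col3a1, Col5a1, Col6a2 and Eln), where 11% of all genes were. With metformin against transgenic, 0 were higher and 4 lower (Des, Rgs5, Tgfb1 and Ecm1), where 9.93% and 11.7% of all genes were. Between treated and wild type mice, 0 were higher and 4 lower (Col1a2, Col4a2, Des and Pdgfrb), where 6.21% and 8.23% of all genes were.

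**Figure D1:**
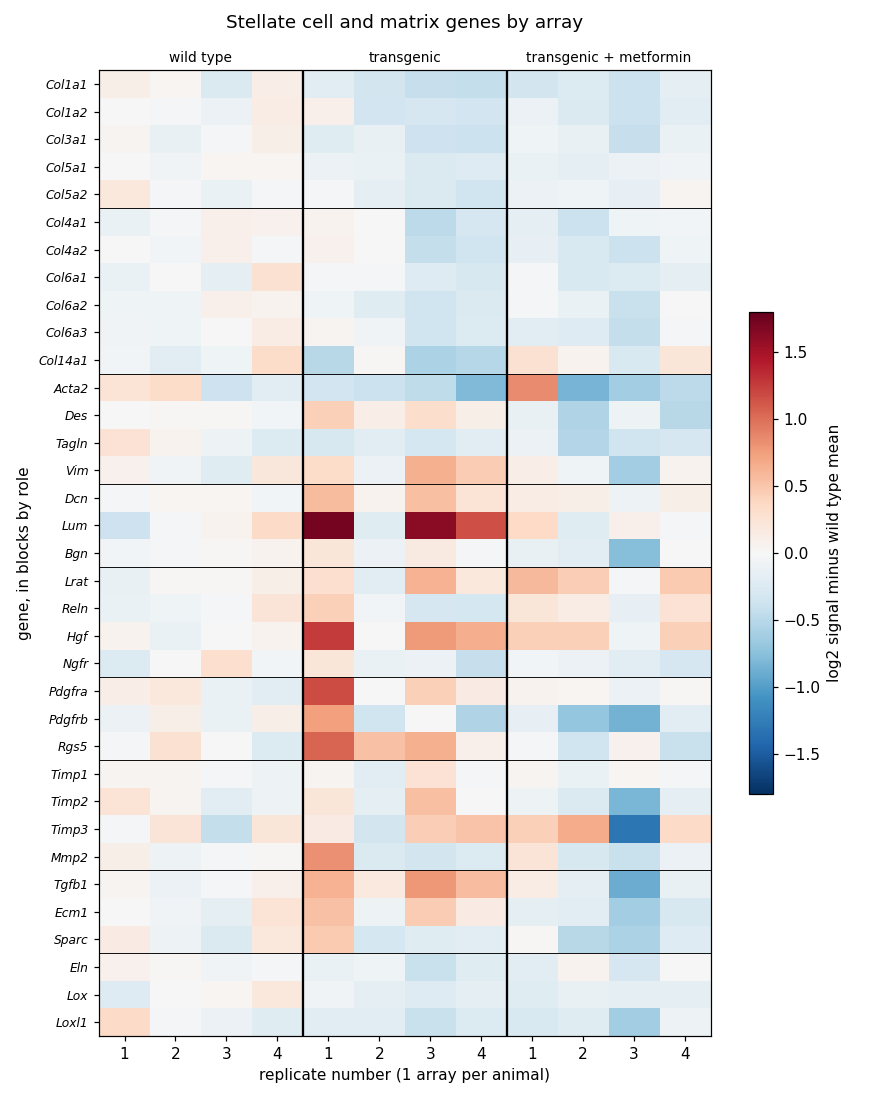
Level of the 35 measured members in each of 12 arrays, as log2 signal minus the mean of the 4 wild type arrays (colour scale from -1.8 to 1.8), with genes in rows, in blocks by role, and the replicates of each group in columns. The collagen rows are pale blue in most transgenic arrays, while Lum, Hgf and Tgfb1 are red in transgenic replicates 1, 3 and 4, and metformin-treated replicate 3 has the deepest blue cells, such as Timp3.

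The arrays differed in ways that bear on these values. The wild type replicates 1 and 4 and all 4 metformin-treated arrays had signal of Xist, the RNA of the inactive X chromosome, whereas wild type replicates 2 and 3 and all 4 transgenic arrays had signal of Y-linked genes. Sex is not among the labels, and metformin and this signal cannot be told apart between the treated and untreated transgenic mice except through the wild type arrays. Transgenic replicate 2 correlated more with the wild type arrays (mean r = 0.984 over genes) than with its own group (0.968), and metformin-treated replicate 3 had a mean r of 0.974 with its own group, below the other treated arrays. Foxo3 itself did not separate the groups, at 8.54 to 8.89 in wild type, 8.60 to 8.97 in transgenic and 8.29 to 9.11 in treated mice, and the array annotation does not say whether its probes read the transgene. The hepatocyte marker Alb, coding for albumin, lay between 13.69 and 13.89 on all arrays, and the stellate cell marker Gfap was near the bottom of the range, between 4.54 and 4.86.

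These arrays took unequal shares of the extremes. Transgenic replicate 1 had the highest level of the 12 arrays for 12 of 33 members (36.4%, beside 12.7% of all genes), among them Des, Lum, Hgf, Pdgfra, Pdgfrb and Sparc. Metformin-treated replicate 3 had the lowest for 15 of 33 (45.5%, beside 18.9% of all genes), among them Tgfb1, Timp3, Bgn and Vim. The mean level of the 35 measured members ran from 7.69 to 7.81 over the wild type arrays, from 7.64 to 8.02 over the transgenic and from 7.39 to 7.78 over the treated, so the groups overlapped. The SD over 4 arrays was larger in transgenic than in wild type mice for 28 of 33 members (84.8%), as for 71% of all genes, with a median SD of 0.25 against 0.13. In whole tissue, fewer cells of a type and less RNA per cell cannot be told apart.

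The collagens gave small differences. All 11 measured chains had a negative difference between transgenic and wild type liver, with a median of -0.20 (all genes, -0.01), and Col1a1 alone was called. These 11 share cells and arrays, so their common sign is not 11 separate observations. Col1a1, a chain of type I collagen, the main fibrillar collagen of scars, was at 7.78, 7.71, 7.41 and 7.79 in wild type, 7.49, 7.34, 7.26 and 7.24 in transgenic and 7.34, 7.43, 7.29 and 7.51 in metformin-treated mice. Wild type replicate 3 lay among the transgenic values, and the other 3 wild type arrays lay above all transgenic and treated ones. The difference was -0.34 ± 0.10 (1.27-fold lower, adjusted p = 0.0381), and with metformin it stood at 0.06 ± 0.10 against transgenic (adjusted p = 0.702).

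The Col1a1 call was not stable. It was kept in 5 of 12 fits that left out 1 array, and lost without wild type replicate 1, 2 or 4, transgenic replicate 3 or 4, or metformin-treated replicate 1 or 2, with estimates between -0.43 and -0.23 over all settings run. Within the arrays with Y-linked signal the difference was -0.23, and with Xist minus the Y-linked genes as a covariate also -0.23 (adjusted p = 0.198), in a fit that called 4.35% of all genes.

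Among the other fibril-forming chains, Col3a1 and Col5a1 were separated between groups without being called. Col3a1, of type III collagen, was at 7.38, 7.21, 7.32 and 7.44 in wild type and at 7.12, 7.20, 6.96 and 6.95 in transgenic mice, a difference of -0.28 ± 0.09 (adjusted p = 0.0689) that was called without transgenic replicate 2 (-0.33, adjusted p = 0.0304) or metformin-treated replicate 3 (-0.28, adjusted p = 0.0277). Col5a1, of the type V collagen that nucleates fibrils, was at 6.71 to 6.82 in wild type and 6.51 to 6.67 in transgenic mice (-0.18 ± 0.06, adjusted p = 0.0778). Col1a2, the partner chain of Col1a1, was at -0.22 ± 0.11 (adjusted p = 0.175). Transgenic replicate 1 (7.38) lay within the wild type range of 7.18 to 7.41 and the other 3 transgenic arrays (6.93 to 6.99) below it, and without replicate 1 the difference was -0.33 (adjusted p = 0.0424). Col5a2 gave -0.20 ± 0.09 (adjusted p = 0.16).

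Basement membrane, beaded-filament and fibril-associated chains gave small differences of the same sign. Col4a1 and Col4a2, the paired chains of basement membrane, were at -0.18 ± 0.12 and -0.18 ± 0.11 in transgenic against wild type mice, and both were low in transgenic replicates 3 and 4 (6.70 and 6.86 for Col4a1) and at the wild type level in replicates 1 and 2 (7.23 and 7.16). The type VI chains Col6a1, Col6a2 and Col6a3 gave -0.15, -0.23 and -0.16, with adjusted p of 0.352, 0.14 and 0.333. Col6a2 lay between 6.80 and 6.97 in wild type and between 6.51 and 6.79 in transgenic mice, without overlap.

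Col14a1, which binds to the surface of collagen fibrils, had the largest estimate of the collagens. Its levels were 9.11, 8.95, 9.07 and 9.49 in wild type, 8.65, 9.18, 8.58 and 8.65 in transgenic and 9.44, 9.23, 8.88 and 9.37 in treated mice. Transgenic replicate 2 stood with the wild type and the other 3 transgenic arrays stood below both other groups. The differences were -0.39 ± 0.16 (adjusted p = 0.127) and, with metformin against transgenic, 0.46 ± 0.16 (adjusted p = 0.0577). Without transgenic replicate 2 they were -0.53 (adjusted p = 0.0207) and 0.60 (adjusted p = 0.00869), in fits that called 26.8% and 32.3% of all genes. The difference with metformin was also called without treated replicate 3 (0.58, adjusted p = 0.0189) and without wild type replicate 4 (0.46, adjusted p = 0.0475). With the Xist and Y-linked covariate the differences were -0.25 (adjusted p = 0.423) and 0.18 (adjusted p = 0.728). Those fits called 4.35% and 0.548% of all genes. In wild type mice Col14a1 had a mean of 9.30 on the arrays with Xist signal and 9.01 on those with Y-linked signal. Whether this signal has a part in the Col14a1 differences was not tested.

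Most collagens also gave small differences with metformin. Of 11 chains, 4 had a negative difference between treated and untreated transgenic mice and 10 had one against wild type, with medians of 0.06 and -0.18. Against wild type, Col1a1 was at -0.28 ± 0.10 (95% interval from -0.49 to -0.07, adjusted p = 0.155) and Col1a2 at -0.23 ± 0.11, with all 4 treated arrays (6.90 to 7.17) below all 4 wild type arrays. Col4a2 was the other chain whose treated and wild type levels did not overlap (6.84 to 7.15 against 7.17 to 7.32). Over the alternatives run, all measured collagens stayed below 0 in transgenic against wild type mice (10 of 10 with the dimmest 50% of genes left out), while the number called lower went from 0 to 7, the highest with array weights, which called 32.2% of all genes. Centring each array on its median moved the collagen median from -0.20 to -0.13 while the median of all genes moved from -0.01 to 0.05.

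Elastic fibre and crosslinking genes gave no call in the main fit, the limma fit of all 12 arrays without the alternatives listed under processing. Elastin (Eln), the core of elastic fibres, was at 6.16 to 6.30 in wild type and 5.83 to 6.15 in transgenic mice, a difference of -0.20 ± 0.10 (adjusted p = 0.175) without overlap of the groups. It was called with array weights (-0.23, adjusted p = 0.0476), where 32.2% of all genes were. Loxl1, a lysyl oxidase needed for elastic fibres, was at -0.26 ± 0.13 (adjusted p = 0.197). Lox, the lysyl oxidase that crosslinks collagen, lay between 4.39 and 4.82 on all 12 arrays, under the dimmest gene tested (mean 4.86).

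Of 3 small leucine-rich proteoglycans, Dcn was called higher in transgenic liver and Lum lower with metformin. Decorin (Dcn), which binds collagen fibrils and TGF-beta, was at 11.86, 11.93, 11.93 and 11.84 in wild type, 12.46, 11.95, 12.42 and 12.14 in transgenic and 12.023, 11.999, 11.80 and 12.001 in treated mice. All 4 transgenic arrays lay above the wild type arrays, replicate 2 by the smallest step. The difference was 0.36 ± 0.11 (1.28-fold, adjusted p = 0.0469), and with metformin against transgenic it was -0.29 ± 0.11 (adjusted p = 0.0713), and without transgenic replicate 2 -0.39 (adjusted p = 0.00851). The Dcn call was kept in 2 of 12 fits with 1 array left out, those without transgenic replicate 2 (0.45, adjusted p = 0.0046) and without metformin-treated replicate 3 (0.36, adjusted p = 0.0323, with 21.8% of all genes called), and its adjusted p rose to 0.146 with the Xist and Y-linked covariate.

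Lumican (Lum), a regulator of collagen fibril spacing, had the largest estimates of any member in both comparisons with untreated transgenic mice. It was at 6.95, 7.28, 7.38 and 7.67 in wild type, 9.04, 7.11, 8.95 and 8.48 in transgenic and 7.68, 7.10, 7.40 and 7.30 in metformin-treated mice. Transgenic replicates 1, 3 and 4 stood above every other array, and replicate 2 stood inside the wild type range. Transgenic against wild type was 1.07 ± 0.35 (2.1-fold, adjusted p = 0.0582) and metformin-treated against transgenic was -1.02 ± 0.35 (2.03-fold lower, adjusted p = 0.049). Without transgenic replicate 2 these were 1.50 (adjusted p = 0.000229) and -1.45 (adjusted p = 0.000206). With all 12 arrays, transgenic against wild type was called with median centring (1.14, adjusted p = 0.0488) and array weights (1.24, adjusted p = 0.00209). These fits called 14.5% and 32.2% of all genes. It was not called with the Xist and Y-linked covariate (1.09, adjusted p = 0.144). Besides single arrays left out, 5 of 13 alternatives called it. The call with metformin was lost in the 11 other fits that left out an array. Treated and wild type mice differed by 0.05 ± 0.35, with a 95% interval from -0.70 to 0.81.

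Biglycan (Bgn), the close relative of decorin, gave 0.06 ± 0.15 in transgenic against wild type mice and -0.33 ± 0.15 with metformin (adjusted p = 0.117). Metformin-treated replicate 3, at 10.39, lay below the 10.97 to 11.18 of the other treated arrays.

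**Figure D2:**
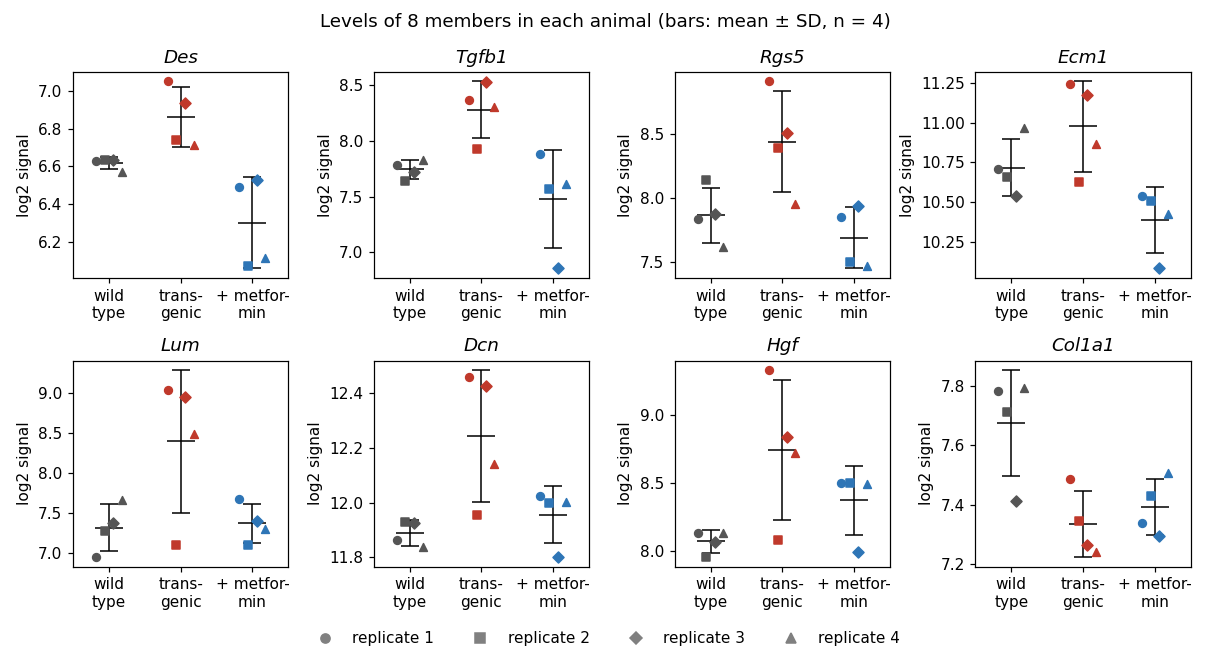
Log2 signal of 8 members (Des, Tgfb1, Rgs5, Ecm1, Lum, Dcn, Col1a1 and Hgf) in each of the 12 arrays, with 1 panel per gene, 1 point per array, and bars for the mean ± SD of 4 arrays. Lum in transgenic replicate 2 sits at 7.11 within the wild type range of 6.95 to 7.67, and the treated arrays of Des, 6.07 to 6.53, lie below every wild type and transgenic array.

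Of the contractile and cytoskeletal genes, desmin (Des) was called. Desmin is an intermediate filament of muscle cells and a long-used marker of rodent stellate cells. Its levels were 6.63, 6.63, 6.64 and 6.57 in wild type, 7.05, 6.74, 6.94 and 6.72 in transgenic and 6.49, 6.07, 6.53 and 6.11 in metformin-treated mice. The 3 groups did not overlap, with the transgenic arrays on top, the wild type in the middle and the treated arrays below. Metformin-treated against transgenic was -0.56 ± 0.12 (1.48-fold lower, adjusted p = 0.00547). Transgenic against wild type was 0.24 ± 0.12 (adjusted p = 0.171) and treated against wild type -0.32 ± 0.12 (adjusted p = 0.183), and these were not called in the main fit. The latter was called with array weights (-0.45, adjusted p = 0.00328), where 20.4% of all genes were. It was also called without both transgenic replicate 2 and metformin-treated replicate 3 (-0.39, adjusted p = 0.048), where 9.46% were.

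Acta2, Tagln and Vim were not called in any comparison of the main fit. With array weights, Tagln was called lower in treated than in wild type mice (-0.33, adjusted p = 0.0327). Vim was called there higher in transgenic against wild type (0.40, adjusted p = 0.0262) and lower with metformin (-0.40, adjusted p = 0.0183). These fits called 20.4%, 32.2% and 43% of all genes. Median centring also called Vim lower with metformin (-0.52, adjusted p = 0.0461), where 24.7% of all genes were called. Acta2, the smooth muscle actin of myofibroblasts, spread widely, from 6.97 to 7.66 in wild type, from 6.54 to 6.99 in transgenic and from 6.49 to 8.19 in treated mice, and its difference between transgenic and wild type was -0.49 with a 95% interval from -1.17 to 0.18. The 8.19 was treated replicate 1, and the next treated array was at 6.86. Tagln, an actin-binding protein of contractile cells, gave -0.24 ± 0.11 (adjusted p = 0.162). Vim, the intermediate filament of mesenchymal cells in general, gave 0.33 ± 0.18 in transgenic against wild type and -0.46 ± 0.18 with metformin (adjusted p = 0.234 and 0.0873), the latter being -0.61 (adjusted p = 0.0178) without transgenic replicate 2.

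The 4 members taken as stellate cell identity genes (Lrat, Reln, Hgf and Ngfr) were not called in any comparison of the main fit. A wider list of stellate cell markers, given below, had 8 of 16 called lower with metformin (50%, beside 14.1% of all genes). With array weights, Lrat was called higher in treated than in wild type mice (0.48, adjusted p = 0.00377), where 20.4% of all genes were called. Reln was called higher with metformin against transgenic (0.37, adjusted p = 0.0331), where 43% were. Lrat was at 8.99 to 9.23 in wild type, 8.92 to 9.75 in transgenic and 9.10 to 9.71 in treated mice, with differences of 0.22 ± 0.17 and, for treated against wild type, 0.37 ± 0.17 (adjusted p = 0.29). Without transgenic replicate 2 and metformin-treated replicate 3 these were 0.37 (adjusted p = 0.0173) and 0.50 (adjusted p = 0.0157), in fits that called 36.8% and 9.46% of all genes. Reln, a secreted glycoprotein that marks stellate cells, gave -0.06 ± 0.16, with a 95% interval from -0.40 to 0.29. Ngfr, the low-affinity neurotrophin receptor, gave -0.11 ± 0.14, with an interval from -0.41 to 0.19.

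Hgf, hepatocyte growth factor, which stellate cells secrete and to which hepatocytes respond, was the identity gene with the largest estimate. It was at 8.13, 7.95, 8.07 and 8.13 in wild type, 9.33, 8.08, 8.84 and 8.72 in transgenic and 8.50, 8.50, 7.995 and 8.49 in metformin-treated mice. Transgenic replicate 2 and treated replicate 3 stood at the wild type level, and the other arrays of both groups stood above it. Transgenic against wild type was 0.67 ± 0.21 (1.59-fold, 95% interval from 0.21 to 1.13, adjusted p = 0.0535), and it was called without transgenic replicate 2 (0.89, adjusted p = 0.00192) or treated replicate 3 (0.67, adjusted p = 0.0346). With all 12 arrays, that difference was also called with median centring (0.74, adjusted p = 0.0325) and with array weights (0.71, adjusted p = 0.00171). These fits called 14.5% and 32.2% of all genes. Array weights also called Hgf higher in treated than in wild type mice (0.41, adjusted p = 0.0215), where 20.4% of all genes were. With metformin against transgenic Hgf was at -0.37 ± 0.21 (adjusted p = 0.223), and without transgenic replicate 2 it was -0.59 (adjusted p = 0.0142).

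Of the receptors and regulators shared with pericytes, Rgs5 was called. Rgs5, a regulator of G-protein signalling found in pericytes, was at 7.83, 8.14, 7.87 and 7.61 in wild type, 8.91, 8.39, 8.51 and 7.95 in transgenic and 7.85, 7.50, 7.94 and 7.47 in treated mice. The transgenic arrays all lay above the treated arrays, by the smallest margin between transgenic replicate 4 and treated replicate 3. Metformin-treated against transgenic was -0.75 ± 0.19 (1.69-fold lower, adjusted p = 0.0134), and transgenic against wild type 0.58 ± 0.19 (adjusted p = 0.0603). The latter was called without transgenic replicate 4 (0.74, adjusted p = 0.0297) or treated replicate 3 (0.58, adjusted p = 0.0454). With all 12 arrays it was also called with median centring (0.64, adjusted p = 0.0476) and with the replicate number as a block (0.58, adjusted p = 0.0371). These fits called 14.5% and 12.1% of all genes. Besides single arrays left out, 3 of 13 alternatives called it.

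The platelet-derived growth factor receptors were not called with all 12 arrays. Pdgfra gave 0.44 ± 0.20 in transgenic against wild type mice and -0.44 ± 0.20 with metformin (adjusted p = 0.16 and 0.135), with transgenic replicate 1 (8.39) above the other transgenic arrays (7.22 to 7.64). Without replicate 1 these differences were 0.20 and -0.20 (adjusted p = 0.318 and 0.289), and without transgenic replicate 2 both were called, at 0.59 and -0.59 (adjusted p = 0.0467 and 0.0403). Pdgfrb, the receptor that marks stellate cells and pericytes, gave -0.04 ± 0.24 and -0.44 ± 0.24 (adjusted p = 0.922 and 0.215). Its 4 treated arrays, at 6.95 to 7.66, lay below the 4 wild type arrays, at 7.69 to 7.92, by a margin smaller than the SD of either group.

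The proteases and inhibitors among the members gave no call in the main fit. Timp2 and Timp3, inhibitors of metalloproteinases, gave 0.15 ± 0.18 and 0.19 ± 0.37 in transgenic against wild type mice, and -0.49 ± 0.18 (adjusted p = 0.0679) and -0.16 ± 0.37 with metformin. The Timp2 difference with metformin was called without transgenic replicate 2 (-0.59, adjusted p = 0.0286). Timp3 was at 8.82 to 9.15 in treated replicates 1, 2 and 4 and at 7.18 in replicate 3. Mmp2, a gelatinase, was at 8.10 in transgenic replicate 1 and at 6.94 to 7.03 in the other transgenic arrays, with a group difference of 0.00 ± 0.23. Timp1, an inhibitor that is induced in fibrotic liver, lay between 4.44 and 4.90 on all arrays, at the level left out of testing.

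Tgfb1 and Ecm1 were called lower with metformin. Tgfb1, the cytokine that drives collagen synthesis in stellate cells, was at 7.79, 7.64, 7.72 and 7.83 in wild type, 8.36, 7.92, 8.52 and 8.30 in transgenic and 7.88, 7.57, 6.86 and 7.61 in treated mice. The transgenic arrays lay above both other groups. Metformin-treated against transgenic was -0.80 ± 0.19 (1.74-fold lower, adjusted p = 0.0102), and transgenic against wild type 0.53 ± 0.19 (adjusted p = 0.0762). Without treated replicate 3, the lowest array, the difference with metformin was -0.59 (adjusted p = 0.00727, with 28.6% of all genes called). Transgenic against wild type was called in that fit (adjusted p = 0.0133) and without transgenic replicate 2 (0.65, adjusted p = 0.0239). With all 12 arrays, it was also called with median centring (0.60, adjusted p = 0.0419) and array weights (0.57, adjusted p = 0.00223), which called 14.5% and 32.2% of all genes. It was not called with the Xist and Y-linked covariate (0.64, adjusted p = 0.115). Besides single arrays left out, 5 of 13 alternatives called it.

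Ecm1, a secreted matrix protein known to hold TGF-beta in its latent form in liver, was at 10.71, 10.66, 10.54 and 10.96 in wild type, 11.24, 10.63, 11.17 and 10.86 in transgenic and 10.54, 10.51, 10.09 and 10.42 in treated mice. The transgenic arrays all lay above the treated ones and overlapped the wild type. The difference with metformin was -0.59 ± 0.15 (1.5-fold lower, adjusted p = 0.0145), beside 0.26 ± 0.15 for transgenic against wild type (adjusted p = 0.249) and -0.33 ± 0.15 for treated against wild type (adjusted p = 0.289). Sparc, a collagen-binding glycoprotein, gave -0.07 ± 0.18 and -0.26 ± 0.18, with transgenic replicate 1 (11.41) above the other transgenic arrays (10.61 to 10.74).

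**Figure D3:**
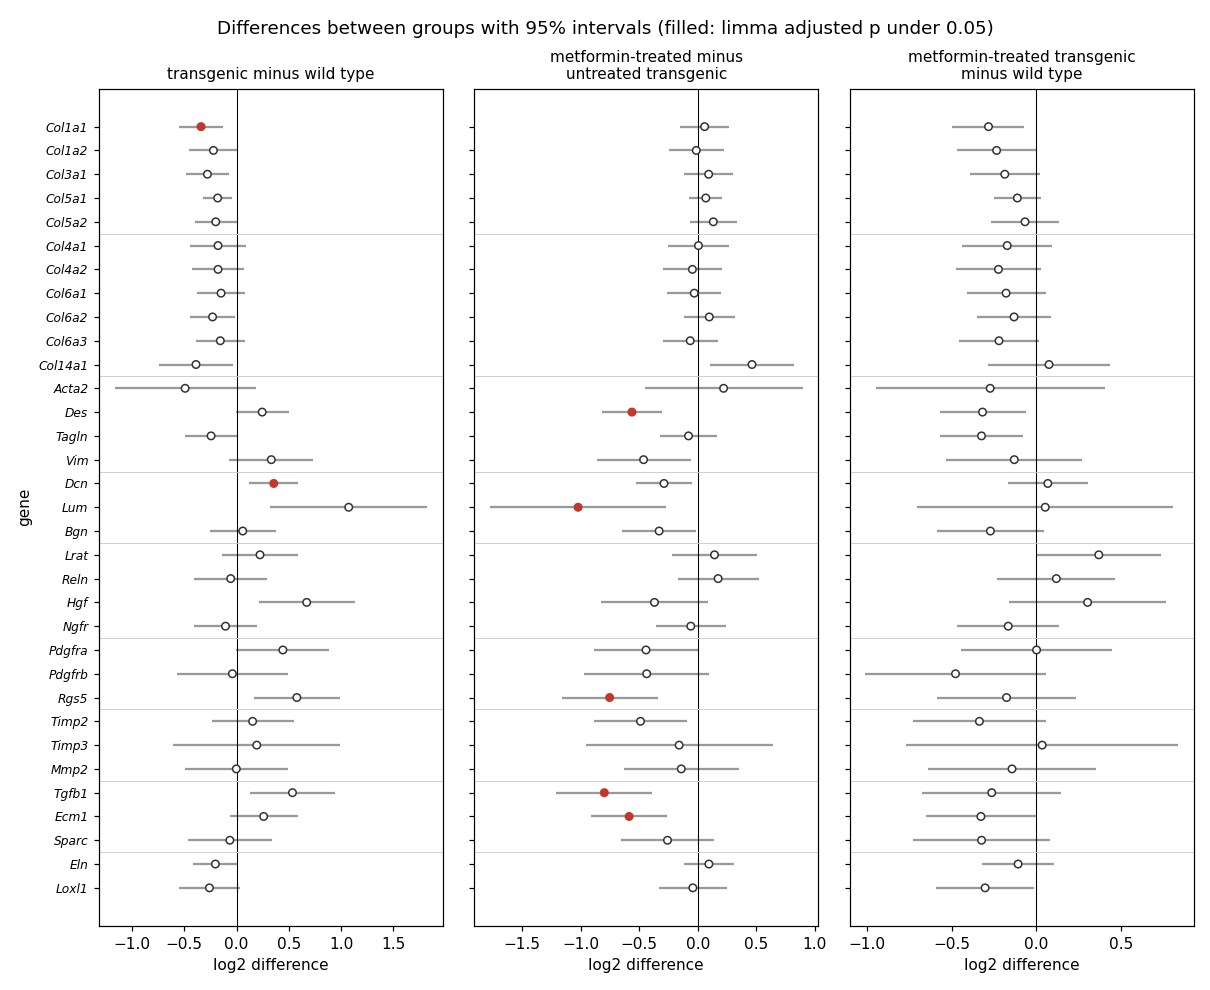
Log2 differences of the 33 tested members for transgenic against wild type and for metformin-treated against untreated transgenic mice, with 95% intervals from the fit, genes in rows and called members in a filled colour. The collagens lie just left of 0 in transgenic against wild type, and Des, Tgfb1, Rgs5, Ecm1 and Lum lie left of 0 with metformin, from -0.56 to -1.02.

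The 5 members called lower with metformin were refitted with arrays left out and with the Xist and Y-linked signal as a term. Des, Tgfb1, Rgs5 and Ecm1 were called in 12 of 12 fits that left out 1 array. With Xist minus the Y-linked genes as a covariate, a term that only the 4 wild type arrays can inform in full, none of the 5 was called, and 0.548% of all genes were. The estimates then were -0.51 for Des, -1.01 for Tgfb1, -0.48 for Rgs5, -0.87 for Ecm1 and -1.06 for Lum, with adjusted p of 0.192, 0.124, 0.397, 0.0933 and 0.338. Leaving out transgenic replicate 2 as well gave calls for Tgfb1 (-1.11, adjusted p = 0.0367), Ecm1 (-0.96, adjusted p = 0.0141) and Lum (-1.43, adjusted p = 0.0153), and for Vim (-0.93, adjusted p = 0.036), but not for Des (adjusted p = 0.11) or Rgs5 (adjusted p = 0.346), where 12.3% of all genes were called.

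Within wild type mice, with 2 arrays of each kind, Tgfb1 was at a mean of 7.81 on the arrays with Xist signal and 7.68 on those with Y-linked signal, and Ecm1 at 10.84 and 10.60. Rgs5 was at 7.72 and 8.01, Des at 6.60 and 6.63 and Lum at 7.31 and 7.33. Whether this signal has a part in the differences with metformin was not tested by these means. Setting the transgenic arrays against the 2 wild type arrays with Y-linked signal alone gave 1.06 for Lum, 0.73 for Hgf, 0.60 for Tgfb1, 0.43 for Rgs5, 0.32 for Dcn and 0.23 for Des, and no member was called there, where 0.0602% of all genes were.

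The sequences around the start sites of Des, Rgs5, Ecm1 and Tgfb1 are shown because these members were all called lower with metformin in each fit that left out 1 array, and that of Hgf because it is 1 of 2 member promoters with the forkhead core GTAAACA. They are RefSeq sequences of GRCm38.p6, from 250 bases before to 50 bases after an annotated start, given 5′ to 3′ on the gene's strand. They lie at chr1:75360042-75360341 (Des, plus strand), chr1:169655251-169655550 (Rgs5, plus), chr3:95739520-95739819 (Ecm1, minus), chr7:25686752-25687051 (Tgfb1, plus) and chr5:16553245-16553544 (Hgf, plus). Capitals mark matches on either strand. The motifs searched were the forkhead core GTAAACA, the core of the insulin response element, CAAAACA, and the SMAD box CAGAC, which reads as GTCTG on the other strand. The others were the TATA box TATAAA, the CCAAT box, which reads as ATTGG on the other strand, and the CArG box that serum response factor binds. No match overlaps another in the promoters shown.
Des: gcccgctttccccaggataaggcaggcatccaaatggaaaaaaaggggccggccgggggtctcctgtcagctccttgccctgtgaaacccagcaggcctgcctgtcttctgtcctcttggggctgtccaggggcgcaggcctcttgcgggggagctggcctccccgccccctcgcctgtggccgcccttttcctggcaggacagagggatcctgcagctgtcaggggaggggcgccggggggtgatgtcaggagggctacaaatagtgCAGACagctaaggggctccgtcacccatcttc
Rgs5: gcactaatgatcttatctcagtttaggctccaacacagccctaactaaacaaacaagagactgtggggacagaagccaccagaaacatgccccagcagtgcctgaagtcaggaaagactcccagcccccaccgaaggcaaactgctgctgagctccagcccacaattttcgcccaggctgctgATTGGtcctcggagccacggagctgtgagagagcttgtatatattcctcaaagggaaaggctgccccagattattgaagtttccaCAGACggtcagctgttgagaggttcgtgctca
Ecm1: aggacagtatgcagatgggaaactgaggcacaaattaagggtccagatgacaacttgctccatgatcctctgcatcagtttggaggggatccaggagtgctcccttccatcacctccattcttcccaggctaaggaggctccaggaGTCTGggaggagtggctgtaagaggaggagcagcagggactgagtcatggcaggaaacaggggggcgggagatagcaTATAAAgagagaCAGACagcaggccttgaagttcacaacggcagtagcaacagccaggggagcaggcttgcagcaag
Tgfb1: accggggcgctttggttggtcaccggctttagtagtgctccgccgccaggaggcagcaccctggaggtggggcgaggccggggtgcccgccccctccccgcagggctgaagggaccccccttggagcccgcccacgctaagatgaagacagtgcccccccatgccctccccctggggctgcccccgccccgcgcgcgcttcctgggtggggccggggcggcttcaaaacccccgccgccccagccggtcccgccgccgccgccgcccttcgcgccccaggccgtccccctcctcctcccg
Hgf: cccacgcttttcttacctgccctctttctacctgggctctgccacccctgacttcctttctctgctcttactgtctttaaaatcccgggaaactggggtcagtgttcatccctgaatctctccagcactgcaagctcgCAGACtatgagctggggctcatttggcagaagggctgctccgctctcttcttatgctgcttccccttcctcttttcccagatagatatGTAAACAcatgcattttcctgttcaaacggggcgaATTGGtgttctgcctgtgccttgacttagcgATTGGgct
Of the 36 members, 25 had a promoter entry. The core GTAAACA was in 2 of the 25 (Hgf and Col6a1, 8%) and in 4.05% of 27025 genes with a promoter. In Hgf it begins 24 bases before the start in this entry, and a second annotated Hgf start, within the same gene, has no match. CAGAC was in 13 of 25 (52%; all genes, 53.2%), including Des, Rgs5, Ecm1 and Hgf, and TATAAA was in 3 (12%; all genes, 15.7%), including Ecm1, where it begins 27 bases before the start. CCAAT was in 9 (36%; all genes, 41.1%), and CAAAACA and the CArG box were in 0, beside 7.2% and 1.81% of all genes. Tgfb1 held no match. These shares describe letters in a window and do not show binding.

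Lists of the pathways that act on stellate cells were examined beside the members. In the TGF-beta pathway list (ligands, receptors, SMAD proteins and their regulators, 26 tested), 4 genes were called higher in transgenic against wild type liver (15.4%, beside 7.97% of all genes) and 0 lower. Tgfbr2, the type 2 receptor that binds the ligand, was at 8.39 to 8.98 in wild type, 9.03 to 10.01 in transgenic and 8.18 to 8.61 in treated mice (0.99 ± 0.19, adjusted p = 0.00949). Tgif1, a repressor of SMAD-dependent transcription, rose by 1.10 ± 0.22 (adjusted p = 0.0112), and Smad7, the inhibitory SMAD, rose by 0.87 ± 0.19 (adjusted p = 0.0139). Both act against the pathway. In all 3 genes the transgenic arrays lay above the wild type arrays, with replicate 2 nearest to them for Tgfbr2 and Tgif1, at 9.03 and 8.47, and for Smad7, at 7.76.

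With metformin, 14 of the 26 TGF-beta genes were called lower (53.8%, beside 14.1% of all genes) and 0 higher. Smad7, at 7.76 to 8.60 in untreated and 6.80 to 7.06 in treated transgenic mice, was at -1.28 ± 0.19 (adjusted p = 0.000908), Tgif1 at -1.22 ± 0.22 (adjusted p = 0.00302) and Tgfbr2 at -1.12 ± 0.19 (adjusted p = 0.00231). The called genes included the inhibitors Smad6, Smad7, Ski, Skil, Bambi and Smurf1 as well as Smad3, Smad4, Tgfb2 and Tgfb3. Against wild type, treated mice gave 0 calls in limma in this list, with 7 genes at an unadjusted p under 0.05, and Tgfb2 and Tgfb3 were at -0.24 ± 0.07 (adjusted p = 0.1) and -0.33 ± 0.11 (adjusted p = 0.14).

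Ligands and regulators of mesenchymal cells were called in the same directions. Of 19 genes tested, 3 were called higher in transgenic mice (15.8%, beside 7.97% of all genes). They were Twist1, a transcription factor of mesenchyme (0.43 ± 0.09, adjusted p = 0.0116), Ccn1, a secreted matricellular protein (0.88 ± 0.20, adjusted p = 0.0165), and Wwtr1, a co-activator that works beside Yap1 (0.51 ± 0.13, adjusted p = 0.0225). With metformin 11 were called lower (57.9%, beside 14.1% of all genes). Ccn1 was at 7.79 to 8.43 in wild type, 8.66 to 9.34 in transgenic and 7.19 to 7.91 in treated mice, a difference with metformin of -1.40 ± 0.20 (adjusted p = 0.000783). Yap1, the Hippo pathway co-activator, and Gata4, a transcription factor of stellate and endothelial cells, were at -0.55 ± 0.07 and -0.73 ± 0.11 (adjusted p = 0.000542 and 0.001).

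Yap1, Gata4 and Nr2f2, a nuclear receptor of mesenchyme and vein, were also called lower in treated mice than in wild type (-0.43, -0.59 and -0.54, adjusted p = 0.0139, 0.0205 and 0.0415). They were 15.8% of the list, beside 1.44% of all genes. For Yap1 the treated arrays, at 9.09 to 9.26, lay below the 9.55 to 9.74 of wild type and the 9.68 to 9.85 of transgenic mice. Gata4 was at 7.29 to 7.73 in treated and 7.99 to 8.48 in all other arrays.

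Markers of hepatic stellate cells overlapped this pattern. Of 18 markers, 9 are members and 3 are in the list of mesenchymal regulators, so this list is not separate evidence. Of 16 tested, 1 was called higher in transgenic against wild type mice (Dcn, 6.25%, beside 7.97% of all genes). With metformin 8 were called lower (50%) and 1 higher (6.25%), beside 14.1% and 10.6% of all genes. The lower ones were led by Lhx2, a transcription factor that keeps stellate cells quiescent (-0.63 ± 0.13, adjusted p = 0.00512), with Des and Rgs5. The gene called higher was Colec10, a collectin secreted by stellate cells, which was also called higher in treated than in wild type mice (0.66 ± 0.15, adjusted p = 0.0414). It was at 8.16 to 8.74 in wild type, 8.41 to 8.70 in transgenic and 8.63 to 9.22 in treated mice.

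The counts of these 3 lists changed with the arrays fitted and with the Xist and Y-linked covariate. With transgenic replicate 2 left out, 9 of 26 TGF-beta genes, 9 of 19 regulators and 7 of 16 stellate cell markers were called higher in transgenic against wild type mice. Of all genes, 15.4% were. Without metformin-treated replicate 3 the counts were 6, 4 and 3, where 12.5% of all genes were called higher. The shares of all genes in these fits, given with the member counts above, also stand beside the counts for the lists below. With the covariate, 0 genes of these lists were called for metformin-treated against transgenic mice, where 0.548% of all genes were. Their medians were then -0.50, -0.48 and -0.43, beside -0.36, -0.46 and -0.47 without it. With the covariate and without transgenic replicate 2, 11, 9 and 4 were called lower, where 7.39% of all genes were.

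**Figure D4:**
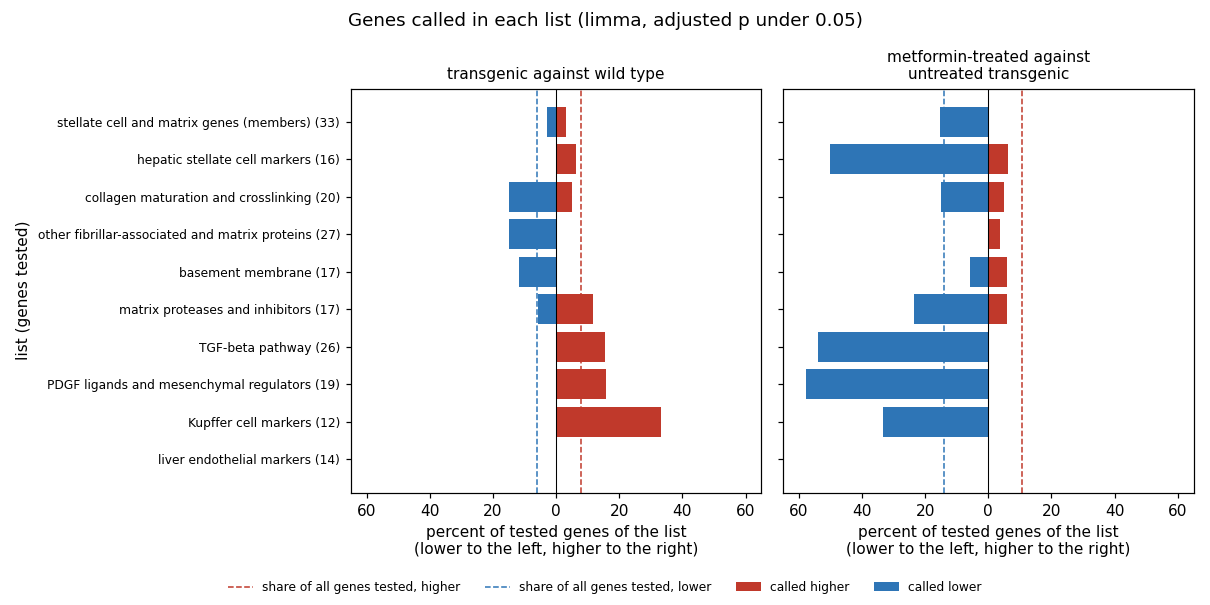
Percent of the tested genes of each of 10 lists called lower (left of 0) and higher (right of 0) for transgenic against wild type and for metformin-treated against untreated transgenic mice, with dashed lines at the percent of all genes tested called in that direction. The TGF-beta and mesenchymal regulator bars reach 53.8% and 57.9% lower with metformin, beside 15.2% for the members.

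Genes that process or accompany collagen were called in single cases. Among 20 tested genes of collagen maturation and crosslinking, 3 were called lower (15%) and 1 higher (5%) in transgenic against wild type mice. Of all genes, 6.15% and 7.97% were. With metformin 3 were lower (15%) and 1 higher (5%), where 14.1% and 10.6% of all genes were. Tram2, which serves type I collagen synthesis, was at 8.70 to 8.98 in wild type, 8.10 to 8.48 in transgenic and 7.89 to 8.42 in treated mice (-0.57 ± 0.13 and, treated against wild type, -0.56 ± 0.13, adjusted p = 0.0169 and 0.0468). Bmp1, the protease that removes the procollagen C-propeptide, fell by 0.55 on the log2 scale in transgenic mice (adjusted p = 0.0307). Sec23a, a coat protein of vesicles that export collagen, was at -0.39 ± 0.09 and then, with metformin, at 0.58 ± 0.09 (adjusted p = 0.0187 and 0.0015). Tgm2, a transglutaminase, and Serpinh1, the collagen chaperone, were called lower with metformin (-0.80 ± 0.17 and -0.40 ± 0.10, adjusted p = 0.00639 and 0.0155). In this list 4 genes were called higher in transgenic mice without transgenic replicate 2, and 4 higher and 5 lower with metformin. The fits without metformin-treated replicate 3 called 2 higher in each of these comparisons.

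Among 27 other matrix proteins, 4 were called lower in transgenic mice (14.8%, beside 6.15% of all genes). They were led by Ogn, a small proteoglycan (-0.68 ± 0.18, adjusted p = 0.0312), Col27a1, a fibrillar collagen chain (-0.35 ± 0.10, adjusted p = 0.0314), and Vtn, the hepatocyte product vitronectin (-0.38 ± 0.10, adjusted p = 0.0349). With metformin 1 was called (3.7%), Vtn, which was higher (0.34 ± 0.10, adjusted p = 0.0336), where 10.6% of all genes were. Treated mice gave 0 calls in limma against wild type (4 genes at an unadjusted p under 0.05), with Fn1, fibronectin, at -0.11 ± 0.12 and Fbln1, a fibulin, at 0.01 ± 0.18. In this list 2 genes were called higher in transgenic mice without transgenic replicate 2, and 2 lower with metformin, while without metformin-treated replicate 3 the number called higher with metformin was 2.

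Of 17 basement membrane genes, Agrn, a heparan sulfate proteoglycan, and Col15a1 were called lower in transgenic mice (-0.41 ± 0.10 and -0.50 ± 0.13, adjusted p = 0.0225 and 0.031). They were 11.8% of the list, beside 6.15% of all genes. Agrn was also lower in treated than in wild type mice (-0.54 ± 0.10, adjusted p = 0.022), as was Col18a1, whose C-terminal fragment is endostatin (-0.64 ± 0.14, adjusted p = 0.0364). This too was 11.8%, beside 1.44% of all genes. With metformin against transgenic, Col18a1 was called lower (-0.47 ± 0.14, adjusted p = 0.0286) and Col4a5 higher (0.20 ± 0.06, adjusted p = 0.0365). Each was 5.88% of the list, where 14.1% and 10.6% of all genes were called lower and higher. Without metformin-treated replicate 3, 2 basement membrane genes were called higher and 0 lower there, and without transgenic replicate 2, 2 were called higher and 2 lower there and 4 lower in transgenic against wild type mice.

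Of 17 further proteases and inhibitors, Mmp14, the membrane-bound collagenase, and Adam10, a sheddase, were called higher in transgenic mice, and Mmp19 lower. These were 11.8% higher and 5.88% lower, beside 7.97% and 6.15% of all genes. Mmp14 was at 8.17 to 8.40 in wild type, 8.75 to 9.50 in transgenic and 7.81 to 8.29 in treated mice (0.65 ± 0.16, then -0.92 ± 0.16, adjusted p = 0.022 and 0.00229). Mmp19 went the other way, at 9.50 to 9.98, 8.31 to 9.33 and 9.83 to 10.19 (-0.88 ± 0.20, then 1.15 ± 0.20, adjusted p = 0.0165 and 0.00219). Adam10 was at 0.44 ± 0.10 (adjusted p = 0.0176). With metformin 4 of these genes were called lower (23.5%) and 1 higher (5.88%), beside 14.1% and 10.6% of all genes. Adamts1, a secreted protease, was among the lower (-1.08 ± 0.30, adjusted p = 0.0222). Treated mice gave 0 calls in limma against wild type and 0 at an unadjusted p under 0.05, with Mmp3 and Mmp8 under the level tested. The number called higher in transgenic mice was 4 without transgenic replicate 2, and that with metformin was 2 without metformin-treated replicate 3.

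Markers of other liver cells moved with some of these groups, and their part in the results was not tested. Of 12 Kupffer cell markers, 4 were called higher in transgenic against wild type mice (33.3%, beside 7.97% of all genes) and 4 lower with metformin (33.3%, beside 14.1%). Their mean level ran from 8.47 to 9.22 in wild type, from 9.06 to 9.84 in transgenic and from 8.29 to 9.28 in treated mice. Cd5l, a protein secreted by these macrophages, C1qa, a complement subunit, and Clec4f, their lectin, gave 1.03 ± 0.21, 0.71 ± 0.15 and 0.62 ± 0.16 (adjusted p = 0.0124, 0.0137 and 0.0271). With metformin, Cd68, a lysosomal protein of macrophages, gave -1.03 ± 0.28, C1qa -0.49 ± 0.15 and Cd5l -0.69 ± 0.21 (adjusted p = 0.0197, 0.0327 and 0.0341). The Kupffer counts were 8 higher and 7 lower without transgenic replicate 2, while without metformin-treated replicate 3 they were 11 and 1, and with the covariate 4 and 0. With the covariate, 2.79% of all genes were called higher in transgenic mice and 0.368% lower with metformin. Treated against wild type mice gave 0 calls in limma and 0 at an unadjusted p under 0.05. Macrophages also make Tgfb1.

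Of 14 liver endothelial markers, 0 were called in limma in any comparison, with 1, 1 and 0 at an unadjusted p under 0.05, and without metformin-treated replicate 3, 3 were called higher with metformin. They had a mean level of 9.27 to 9.49 in wild type, 9.26 to 9.64 in transgenic and 8.45 to 9.66 in treated mice, the 8.45 being treated replicate 3. Its scavenger receptors Stab1 and Stab2 were at 7.63 and 8.59 there and at 8.63 or higher and 9.42 or higher in the other treated arrays.

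Of 9 vascular smooth muscle markers, which include Acta2 and Tagln, 1 was called lower in transgenic mice (Synpo2, -0.34 ± 0.10, adjusted p = 0.0381) and 0 with metformin or in treated against wild type mice (1 and 3 at an unadjusted p under 0.05 in limma), with Myh11 and Cnn1 at 0.09 ± 0.14 and -0.13 ± 0.09 with metformin. Their mean level was 5.82 to 6.03 in wild type, 5.66 to 5.78 in transgenic and 5.62 to 5.98 in treated mice. Of 11 hepatocyte markers, Ttr, transthyretin, and Apoc3, an apolipoprotein, were called lower in transgenic mice (-0.44 ± 0.10 and -0.24 ± 0.07, adjusted p = 0.0166 and 0.0385), Ttr was called higher with metformin (0.40 ± 0.10, adjusted p = 0.0128), and Alb and Apoa1 were not called in any comparison. The 2 lower in transgenic mice were 18.2% of the hepatocyte list, beside 6.15% of all genes. The 1 higher with metformin was 9.09%, beside 10.6%. The smooth muscle call was 11.1% of its list, beside 6.15%. The mean level of the hepatocyte markers stayed between 13.30 and 13.48 on all arrays. The number of hepatocyte markers called higher with metformin was 3 without transgenic replicate 2, and without metformin-treated replicate 3, 1 was called lower. A single smooth muscle gene was called lower with metformin without transgenic replicate 2.

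Cholangiocyte and lymphocyte markers gave 0 calls in limma among 4 and 6 tested (at most 2 at an unadjusted p under 0.05 in a comparison), with Krt19, a bile duct keratin, at -0.21 ± 0.06 in transgenic against wild type mice (adjusted p = 0.0536), Krt7 at -0.20 ± 0.07 (adjusted p = 0.0879) and Cd3e, a T cell receptor subunit, at -0.06 ± 0.20. In transgenic against wild type mice, 2 cholangiocyte markers were called lower and 1 lymphocyte marker higher without transgenic replicate 2, and 1 and 1 without metformin-treated replicate 3. Of 3 erythroid markers tested, Klf1 was called lower in transgenic mice (-0.44 ± 0.13, adjusted p = 0.0382) and higher with metformin (0.67 ± 0.13, adjusted p = 0.00356). In treated against wild type mice none of the 3 was called by limma (1 at an unadjusted p under 0.05), with Alas2, the erythroid enzyme of haem synthesis, at -1.32 ± 0.51 (adjusted p = 0.207) and Slc4a1, the red cell anion exchanger, at 0.09 ± 0.12.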

How the data were processed

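Liver RNA of 12 mice, 1 biological replicate per array, was hybridised to Affymetrix whole-transcript arrays, and Affymetrix Expression Console (no version given) is named in the submitters' processing notes. The values the authors deposited are log2 signals by their range, with array medians between 5.69 and 5.85. Their summarisation and normalization were not given in the sources used here. No further normalization was applied. Of 35556 rows, 21789 named 1 gene, 1621 named several and 12146 were unnamed; the first kind was used, with symbols checked against RefSeq (21698 rows matched, 0 changed). The row with the highest mean stood for a gene, and the dimmest 25% of 19938 genes were left out. Each member had 1 row.

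Group means were compared in R 4.3.3 by limma 3.58.1 (eBayes after lmFit, all 12 arrays in 1 fit, two-sided, Benjamini-Hochberg over 14953 genes, threshold 0.05), with 95% intervals from the same fit. The fit assumes 1 spread for the 3 groups. The fit was tested on simulated data. Groups and replicate numbers come from the sample titles. Same-numbered arrays did not deviate together (correlations of deviations from -0.18 to 0.24), so the number was used as a block only as an alternative. The members and the gene lists, which were written from general knowledge, were chosen with earlier results of these data known. The text names all members, Foxo3, Xist and the Y-linked genes, and per further list and comparison up to 3 called genes with the smallest p, or the first 2 measured genes where none was called; other genes were named after their values were seen. Alternatives were the dim-gene filter, the mean of a gene's rows, quantile normalization, median centring, trend and robust eBayes, array weights, the replicate block, only the 8 arrays compared, Xist minus the mean of 3 Y-linked genes as a covariate (also without transgenic replicate 2), arrays of 1 kind of sex signal, and each array left out. The fit without both transgenic replicate 2 and metformin-treated replicate 3 was added after seeing the data. Promoters come from a RefSeq table of GRCm38.p6.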

Additional observations from a re-analysis of the deposited data

Results flagged for a closer look

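Among the 35 measured members in 3 groups, 105 sets of 4 arrays were examined for a single array far from the other 3 (a gap to the next array above Dixon's 95% critical share of the range), and 8 had one. Chance gives about 5% of sets. Transgenic replicate 1 stood apart for 3 members: Col1a2 at 7.38 (others 6.93 to 6.99), Mmp2 at 8.10 (6.94 to 7.03) and Sparc at 11.41 (10.61 to 10.74). Metformin-treated replicate 3 stood apart for 3 others: Dcn at 11.80 (11.999 to 12.023), Hgf at 7.995 (8.49 to 8.50) and Timp3 at 7.18 (8.82 to 9.15). Transgenic replicate 2 stood apart for Col14a1, at 9.18 (8.58 to 8.65), and wild type replicate 4 for Des, at 6.57 (6.63 to 6.64), a step small beside the differences between groups.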

How the results depend on the processing

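The number of arrays limits the precision, and the values do not show how far a dim gene lies above background. The 99 differences of single members were refitted 2430 times in all. Of these fits, 2209 kept the direction and side of the threshold, 92 kept the side but changed sign, 80 gained a call and 49 lost one. No called difference changed sign. Where a cause is not shown by the setting itself, it was not tested. For transgenic against wild type (1 member higher, 1 lower), 3 were higher with the dimmest 50% of genes left out (10.3%, where 11.4% of all genes were). The counts were 0 higher without the dim filter (all genes, 5.46%) and with quantile normalization (all genes, 7.39%). They were 5 higher and 0 lower with median centring (15.2% and 0%, where 10.8% and 3.69% of all genes were), and 5 and 8 with array weights (15.2% and 24.2%; all genes, 18.2% and 14.1%). They were 0 and 0 with the sex covariate and on the arrays with Y-linked signal, 6 and 0 with the covariate and without transgenic replicate 2 (18.2% and 0%; all genes, 11.6% and 8.51%), 0 lower with only the 8 arrays compared, and 9 and 4 without both transgenic replicate 2 and metformin-treated replicate 3 (27.3% and 12.1%; all genes, 21.2% and 15.6%). Leaving out 1 array gave 0 to 5 higher and 0 to 3 lower. For metformin-treated against transgenic (0 higher, 5 lower), 1 was higher with the dimmest 50% left out (all genes, 13.6%) and with quantile normalization (all genes, 11.4%). Array weights gave 5 higher and 7 lower (15.2% and 21.2%, where 18.8% and 24.2% of all genes were). The fit without both arrays gave 1 higher and 9 lower (3.03% and 27.3%, where 15.8% and 22.9% of all genes were). Median centring gave 9 lower (27.3%; all genes, 17.3%) and the sex covariate 0 lower, and leaving out 1 array gave 0 to 1 higher and 4 to 10 lower, the 10 being without transgenic replicate 2. For treated against wild type (0 and 0), array weights gave 2 higher and 2 lower (6.06% each; all genes, 8.5% and 11.9%), the fit without both arrays 1 and 1 (3.03% each; all genes, 3.83% and 5.62%), and leaving out 1 array 0. The F test (5 members, where 24.2% of all genes were called) called 17 with array weights, where 50.6% of all genes were. It called 0 with the sex covariate (all genes, 2.27%) and 12 without both arrays (all genes, 45.3%). With 1 array left out it called 1 to 10. Of all genes it called 34.2% without transgenic replicate 2 and 31.8% without metformin-treated replicate 3. Over the fits with 1 array left out, the median difference ran from -0.22 to -0.0036, from -0.15 to 0.0030 and from -0.23 to -0.11 in the 3 comparisons. With the replicate number as a block, which did not pair the arrays, 1 member was higher (Rgs5, 0.58, adjusted p = 0.0371) and 1 lower in transgenic against wild type, Dcn losing its call, and the 5 calls with metformin were kept.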

Other observations

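Markers of portal fibroblasts and mesothelium, cells that can also make matrix, split in these data. Of 11 tested, 1 was called higher (9.09%) and 3 lower (27.3%) in transgenic against wild type mice, beside 7.97% and 6.15% of all genes. With metformin 2 were called higher (18.2%) and 1 lower (9.09%), beside 10.6% and 14.1%. Entpd2, an ectonucleotidase of portal fibroblasts, was at 6.77 to 6.98 in wild type, 7.60 to 8.44 in transgenic and 6.73 to 7.06 in metformin-treated mice, a difference of 1.22 ± 0.15 and then -1.20 ± 0.15 in limma (adjusted p = 0.00131 and 0.000495). The transgenic arrays all lay above the others, replicate 2 being the lowest of them. The mesothelial genes Upk3b and Msln went the other way in transgenic mice (-0.75 ± 0.17 and -0.44 ± 0.11, adjusted p = 0.0176 and 0.0243). With metformin, Gpm6a, a membrane glycoprotein of mesothelium, and Msln were called higher (0.64 ± 0.17 and 0.41 ± 0.11, adjusted p = 0.018 and 0.0194). Treated against wild type mice gave 0 calls in limma (1 at an unadjusted p under 0.05), with Thy1, a fibroblast surface protein, at -0.09 ± 0.12 and Entpd2 at 0.01 ± 0.15.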
